A study of Mus musculus with 21 samples.

Results

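The genes described here are protein-coding genes that are transcribed without introns. They were taken from the mouse mm9 GENCODE vM1 annotation as the protein-coding genes whose every annotated transcript has a single exon, with chromosome M left out. The rule gave 2845 of 22367 protein-coding genes, and 28 of them have more than 1 annotated transcript. By symbol, 1159 are chemosensory receptor genes (olfactory, taste, trace amine and vomeronasal receptors), 63 are histone genes, 1098 carry predicted, RIKEN or pseudogene symbols, and 525 are other named genes. Their median length is 954 nt. Another gene on the same strand overlaps 155 of them.

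Most mammalian coding genes contain introns, and their pre-mRNA passes through the spliceosome. Single-exon genes bypass this step. The replication histone genes are the best known of them: their mRNAs are made in S phase, end in a conserved stem-loop in place of a poly(A) tail, and are processed with the help of the stem-loop binding protein SLBP and the U7 snRNP. Other single-exon genes include the immediate early genes Junb and Ier2, the heat shock gene Hspa1a, many SOX and forkhead factors, and retrocopies of ribosomal protein genes, which arose by reverse transcription of spliced mRNA. RBM10 is an RNA-binding protein known for its part in splicing, so the comparison asks how much RNA that is not spliced is recovered with it.

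Protein-RNA contacts came from iCLIP. UV irradiation of cells joins proteins to the RNA they touch, and the joined nucleotide is read from where reverse transcription stopped. The cells were mandibular (md) MEPA cells, a line of embryonic pharyngeal arch cells derived from 11.5 dpc embryos of CD1 females and a male 'Immortomouse', whose conditional oncogene keeps the cells dividing. They were grown at 33 °C with interferon at 100 U per ml and irradiated with 400 mJ per cm2 at 254 nm. There were 4 libraries made with an RBM10 antibody that recognises both isoforms, and 4 control libraries made with rabbit IgG, 1 for each experiment. Libraries of the RBM10 antibody ran on 1 sequencing lane and control libraries on another: antibody and lane cannot be told apart. RNA-seq of polyadenylated RNA covered 4 CRISPR/Cas9 Rbm10 knockout (KO) lines of md MEPA cells, each a separate line, with the deletion in exon 3 (KO1, KO2) or exon 9 (KO3, KO4), and 3 wild-type (WT) md samples. It also covered 3 samples of the male gene trap ES cell line Rbm10Gt(CSI176)Byg and 3 of its parental line E14Tg2a.4, each group a single line.

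The RBM10 libraries held 772931 to 2840027 crosslinks outside chromosome M and the IgG libraries 101034 to 2150426, so single genes are measured least precisely in IgG libraries 3 and 4, where 3 crosslinks correspond to 29.7 and 19.3 CPM (crosslinks per 1000000 crosslinks of the library outside chromosome M). Rbm10 itself had 23.2, 19.7, 7.20 and 3.49 TPM in md clones KO1 to KO4 and 21.4, 23.2 and 23.7 TPM in md WT, so its level separates KO3 and KO4 but not KO1 and KO2 from WT. In the ES lines it had 4.27, 3.63 and 4.25 TPM in the gene trap line and 32.5, 33.5 and 32.2 TPM in the parental line. Of the 12 arch mesenchyme markers, Vim (3207 TPM), Col1a1 (435 TPM), Prrx1 (48.7 TPM) and Twist1 (22.2 TPM) were present in md WT, while Barx1 and Hand2 were listed at 0 and Dlx5, Dlx6 and Pdgfra had 0.0139, 0.352 and 0.242 TPM. The epithelial, endothelial and leukocyte markers Epcam, Cdh5, Kdr and Ptprc and the pluripotency factors Pou5f1 and Zfp42 were listed at 0 in md WT. The other markers of these lists were not at 0. The pluripotency factors Sox2 and Nanog had 7.29 and 1.62 TPM in md WT, and the leukocyte marker Cd68 had 1.52 TPM. The epithelial markers Krt14, Krt8 and Cdh1 had 0.532, 0.0489 and 0.0377 TPM, and the endothelial marker Pecam1 had 0.0352 TPM.

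The histone stem-loop is the sequence around which much of the histone signal lay, so it is shown first for the histone genes described below. A 16-nt pattern, GGNNNNTTNNNNNNCC with at least 5 of 6 bases of its arms paired, was searched on the transcript strand within 150 nt after the coding end. It was found in 57 of 63 histone genes (90.5%) and in 4 of 2782 other single-exon genes (0.144%). The commonest form, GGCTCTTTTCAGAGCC, stood in 34 genes, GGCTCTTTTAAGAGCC in 9 and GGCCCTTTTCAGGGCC in 8. The following lines give the stem-loop in capitals and the 14 nt before it in lower case, 5′ to 3′ as DNA of the transcript strand, mm9.
Hist1h4d, chr13:23673805-23673834, plus strand: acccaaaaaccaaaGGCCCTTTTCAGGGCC
Hist2h2ac, chr3:96024341-96024370, minus strand: cacgaatccaaaaaGGCTCTTTTTAGAGCC
Hist1h1d, chr13:23647642-23647671, plus strand: tgaaaatctcaaacGGCTCTTTTCAGAGCC
Hist1h1a, chr13:23856247-23856276, plus strand: ataaataacccaacGGCTCTTTTCAGAGCC
H2afx, chr9:44143309-44143338, plus strand: cacacctccacaaaGGCCCTTTTAAGGGCC
All 5 lie in the 3′ untranslated region.

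Single-exon genes took a smaller share of the crosslinks in RBM10 libraries than in IgG libraries. Same-strand crosslinks in the 2845 genes numbered 1870, 6456, 1885 and 785 in RBM10 libraries 1 to 4 and 3407, 8414, 435 and 619 in IgG libraries 1 to 4. As a percentage of all crosslinks outside chromosome M this was 0.170, 0.231, 0.0664 and 0.102% with RBM10 and 0.363, 0.391, 0.431 and 0.398% with IgG. No RBM10 library reached the lowest IgG library. The means were 0.142 ± 0.0730% and 0.396 ± 0.0279% (SD, n = 4 each), 2.78-fold lower with RBM10 (2-sided exact permutation p = 0.0286, the smallest possible with 70 splits, and adjusted p = 0.0444 over the 28 share measures computed). Kept in experiment pairs, all 4 pairs moved the same way, and the exact sign flip p was 0.125, the smallest possible with 4 pairs. Pair 3 and pair 4 moved most, and pairs 1 and 2 alone gave 0.200% against 0.377%. The exact 95% binomial interval, which covers counting error only, was 0.0634 to 0.0694% in RBM10 library 3 and 0.391 to 0.473% in IgG library 3. Counts do not show whether a low share reflects fewer contacts in these genes or more contacts elsewhere.

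The lower share held in each class with a sizeable signal. Histone genes, which package DNA, held 0.0821, 0.121, 0.0288 and 0.0481% of crosslinks in RBM10 libraries and 0.185, 0.217, 0.250 and 0.230% in IgG libraries, a 3.15-fold lower mean. The other named genes held 0.0425 ± 0.0218% with RBM10 and 0.111 ± 0.00365% with IgG. Genes with predicted, RIKEN or pseudogene symbols held 0.0293 ± 0.0121% and 0.0638 ± 0.00249%. In none of these classes did the groups overlap (exact permutation p = 0.0286 and adjusted p = 0.0444 for each). Chemosensory receptor genes held 28 crosslinks in all RBM10 libraries together and 20 in all IgG libraries, and 1134 of 1159 had none. These sums are not scaled to depth, and each RBM10 library was deeper than its paired IgG library, so they do not compare rates. The share of crosslinks on the sense strand of single-exon genes, as opposed to the antisense strand, was 87.7, 89.9, 76.4 and 82.8% with RBM10 and 93.0, 93.4, 91.8 and 96.0% with IgG, again without overlap.

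**Figure D1:**
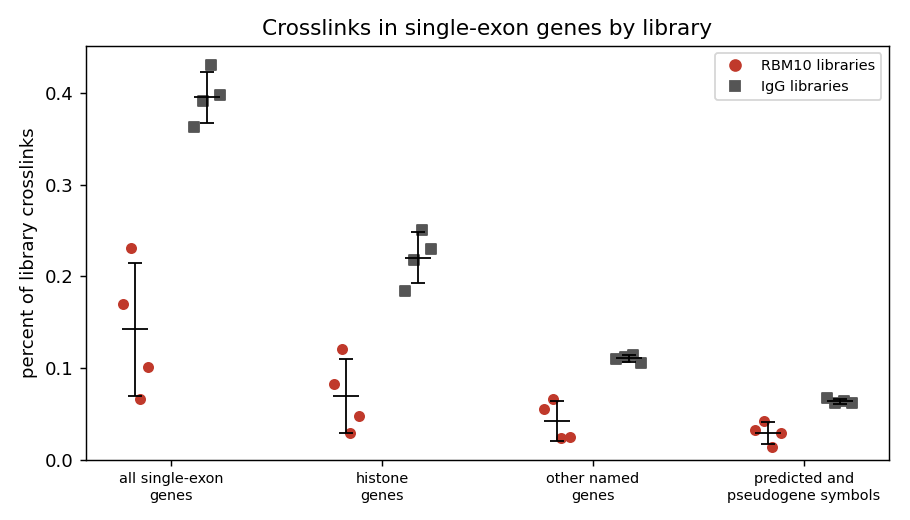
Percent of each library's crosslinks (vertical axis) that lay on the sense strand of single-exon genes and of 3 of their classes, with 4 RBM10 libraries (circles) and 4 IgG libraries (squares); bars are mean ± SD. For all single-exon genes the RBM10 libraries sit between 0.0664 and 0.231% and the IgG libraries between 0.363 and 0.431%.

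Since single-exon genes have no introns, they were next compared with annotated exonic sequence only. Here and below, exons are those of every annotated transcript of a gene, whatever its type. Sequence that is an intron in some transcripts therefore counts as exonic where another transcript covers it. Of the crosslinks in exons of protein-coding genes, single-exon genes held 0.961, 1.25, 0.442 and 0.747% in RBM10 libraries and 1.71, 1.84, 2.23 and 2.31% in IgG libraries. The means were 0.849 ± 0.340% and 2.02 ± 0.291%, without overlap (exact permutation p = 0.0286, adjusted p = 0.0444, sign flip p = 0.125). Exon interiors were defined more narrowly, from protein-coding transcripts of multi-exon genes. They lie more than 100 nt from any splice site and in no intron of a protein-coding transcript. Set against these interiors only, the share was 3.17 ± 0.593% with RBM10 and 4.38 ± 0.609% with IgG. The RBM10 libraries ranged from 2.39 to 3.68% and the IgG libraries from 3.76 to 4.97% (same p values). The gap was thus 2.38-fold against all annotated exons of protein-coding genes and 1.38-fold against exon interiors.

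The shift was graded with exon number. Genes with 2 exons, as the most in any annotated transcript, held 0.947 ± 0.334% of exonic crosslinks with RBM10 and 1.74 ± 0.0280% with IgG, a ratio of 0.543 beside 0.421 for single-exon genes. The ratio was 0.741 for genes with 3 to 5 exons, 0.982 with 6 to 10 and 1.10 with over 10. The exact permutation p was 0.0286 in each class (adjusted p = 0.0357 over 5 classes) except that of 6 to 10 exons (p = 0.0571). The difference between genes with 1 and 2 exons did not pass: single-exon genes held 46.7 ± 4.06% of the crosslinks of both classes together with RBM10 and 53.4 ± 3.75% with IgG, and the groups overlapped (exact permutation p = 0.0857).

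The crosslinked base also differed. RBM10 crosslinks in single-exon genes fell on C in 21.2, 19.6, 28.9 and 22.5% of cases and IgG crosslinks in 17.3, 18.1, 17.2 and 16.5%, a difference of 5.78 points without overlap (exact permutation p = 0.0286, adjusted p = 0.0444). In exons of multi-exon genes the C share was 35.3 ± 7.45% with RBM10 and 16.3 ± 0.591% with IgG. Per library, the C share of single-exon genes minus that of multi-exon exons was -9.04, -8.05, -13.5 and -18.4 points with RBM10, while with IgG the difference was +0.388, +2.06, +1.57 and -0.292 points (exact permutation p = 0.0286). Against exon interiors the difference was -4.98 ± 4.48 points with RBM10 and +2.02 ± 0.819 points with IgG (exact permutation p = 0.0286). Within the RBM10 libraries the difference against exon interiors was -1.54, -1.35, -6.27 and -10.8 points. By experiment pair, RBM10 lay 3.19, 4.18, 8.81 and 11.8 points below its IgG library, least in pairs 1 and 2. U took 46.7 ± 3.41% of crosslinks in single-exon genes with RBM10 and 49.5 ± 3.44% with IgG, and these groups overlapped (exact permutation p = 0.257). Within classes the C shares of the groups overlapped: histone genes had 22.4 ± 4.04% and 18.6 ± 2.11% (exact permutation p = 0.143), the other named genes 24.9 ± 4.68% and 17.8 ± 2.70% (p = 0.0857), and predicted, RIKEN and pseudogene symbols, with the widest gap, 21.6 ± 6.92% and 12.1 ± 1.88% (p = 0.0571). C makes up 27.9% of the bases of the histone genes and 25.1% of those of the other named genes.

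**Figure D2:**
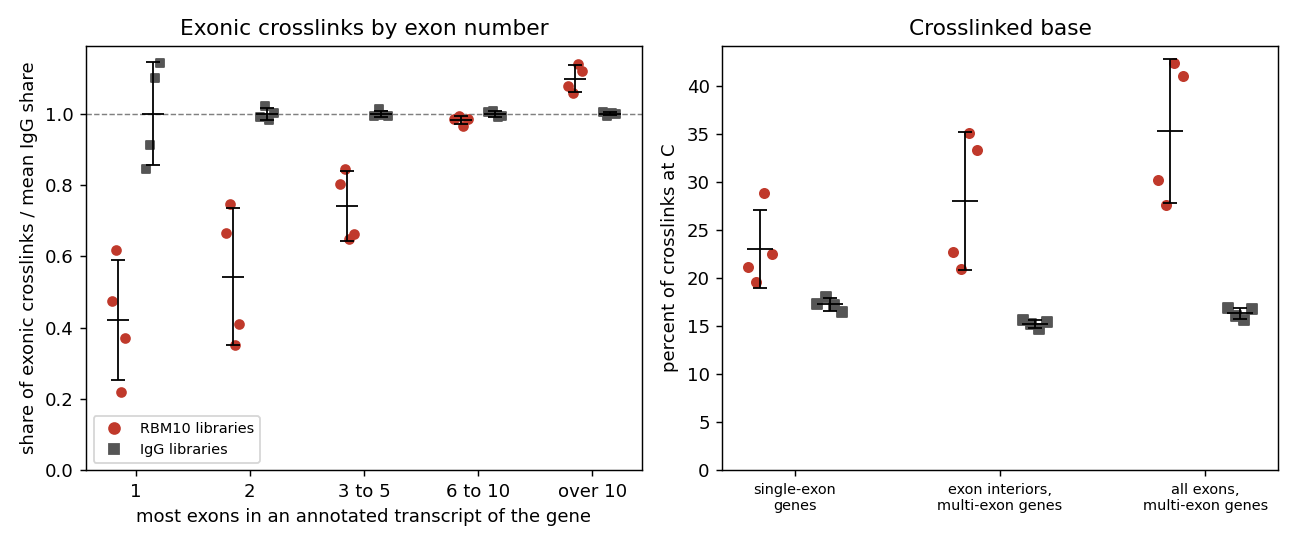
Left, share of exonic crosslinks of protein-coding genes by exon number, divided by the mean IgG share (dashed line at 1); right, percent of crosslinks at C in single-exon genes, exon interiors and all exons of multi-exon genes. Points are libraries (circles RBM10, squares IgG) and bars mean ± SD; the RBM10 ratio goes from 0.421 for genes with 1 exon to 1.10 for genes with over 10, and the C share with RBM10 from 23.0% in single-exon genes to 35.3% in all exons of multi-exon genes.

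Gene by gene, most single-exon genes with enough crosslinks were lower with RBM10, and none was called higher. Of the 2845, 561 had a crosslink, and 62 passed the count filter of edgeR's quasi-likelihood test of gene bodies. These were 33 histone genes, 21 other named genes and 8 with predicted or pseudogene symbols. In all, 48 of the 62 were called lower (adjusted p under 0.05) and 0 higher, while of all 9262 genes tested 17.6% were lower and 19.7% higher. In 32 of the 62 every RBM10 library lay below every IgG library, beside 8.92% of all genes. The median log2 fold change was -1.71 over the 62, 0.04 over all genes tested and 0.09 over multi-exon coding genes. These counts are no independent support for the shares, because the filter selects on counts: 36 of the 62 passed through the IgG libraries without reaching the minimum in all 4 RBM10 libraries, and 32 of these were called lower. Of the 12 that reached it in all 4 RBM10 libraries, 11 were called lower. With a filter on the summed count alone, of at least 10 crosslinks, 231 genes were tested and 89 were lower (12.1% of all genes) and 0 higher. With crosslinks of every gene counted in exons instead of gene bodies, 22 of 62 were lower (4.59% of all genes) and 0 higher, at a median of -1.05. Single-exon genes keep essentially the same counts in this setting. What it changes is the counts of multi-exon genes, and with them the normalization factors, the dispersions and the set of genes tested. Without IgG replicate 2, the deepest control, 28 of 57 were lower (8.18% of all genes). Without normalization factors the split over all genes moved from 19.7% higher and 17.6% lower to 29.1% and 10.3%, the median of all genes from 0.04 to 0.30, and that of the single-exon genes to -1.46.

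**Figure D3:**
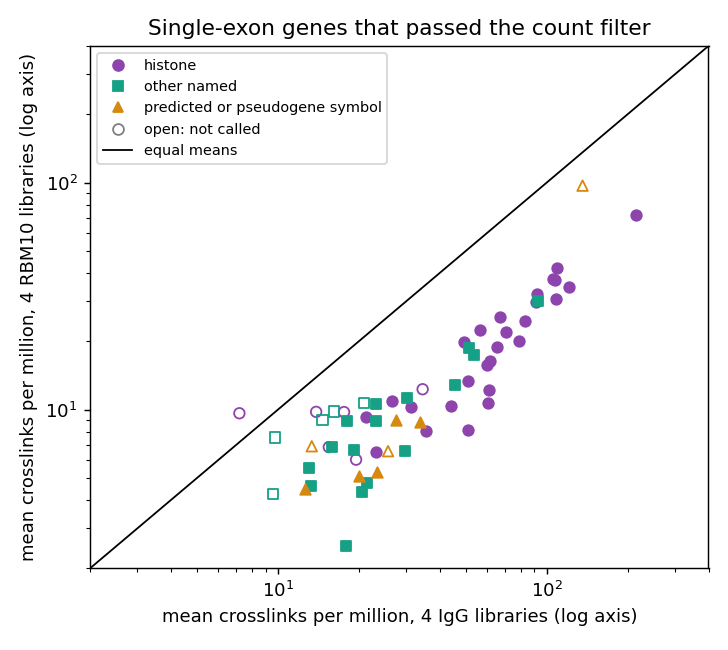
Mean CPM in the 4 RBM10 libraries against the 4 IgG libraries, both on log axes, for the 62 single-exon genes that passed the count filter; filled symbols were called. One of the 62 points lies above the line of equal means, Hist2h3c1 at 9.63 with RBM10 and 7.19 with IgG.

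Histone genes made up 33 of the 62 single-exon genes that passed the count filter, and 48 of the 231 with at least 10 crosslinks. B930036N10Rik, a gene with a predicted symbol described below, had the most RBM10 crosslinks (625). The histone gene with the most, Hist1h4d, a histone H4 gene (ENSMUSG00000061482.6, chr13:23673467-23673859), had 75.5, 111, 23.6 and 78.9 CPM in RBM10 libraries 1 to 4 and 172, 199, 228 and 264 in IgG libraries 1 to 4. All RBM10 values were below all IgG values, and the log2 fold change was -1.76 (SE 0.37, edgeR adjusted p = 0.0032). H2afx, which encodes the DNA damage-associated variant H2AX (ENSMUSG00000049932.2, chr9:44142798-44144154), had 37.3, 93.9, 20.4 and 16.8 CPM with RBM10 and 112, 152, 129 and 45.0 with IgG. Its groups overlapped through RBM10 library 2 and IgG library 4 (log2 fold change -1.62, SE 0.46, edgeR adjusted p = 0.014, and 0.0744 with crosslinks counted in exons). The linker histone gene Hist1h1d had 58.2, 65.4, 12.0 and 14.2 with RBM10 and 117, 137, 89.1 and 77.2 with IgG, without overlap (-1.80, edgeR adjusted p = 0.0083). RBM10 libraries 3 and 4 were the low ones for Hist1h1d, and library 3 for Hist1h4d.

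By family, all 5 tested linker H1 genes and all 9 tested H2A genes were called lower, beside 17.6% of all genes tested. So were 1 of 2 H2B, 5 of 8 H3 and 7 of 9 H4 genes. With crosslinks counted in exons (4.59% of all genes lower), 4 H1, 3 H2A, 1 H2B, 3 H3 and 5 H4 genes were called. The H1 gene Hist1h1e was missing at an edgeR adjusted p of 0.0502. Without IgG replicate 2 (8.18% of all genes lower), 3 of the 9 H2A genes were called. The limit of the count filter given above applies to these counts. Median log2 fold changes lay between -1.91 for H1 and -1.63 for H3. Summed over its members, the H1 family had 164 ± 105 CPM with RBM10 and 508 ± 23.1 with IgG, and H4 had 213 ± 109 and 662 ± 99.5. The lowest single fold among histones was that of Hist1h3c, an H3 gene, with 8.18, 13.2, 2.11 and 9.06 CPM with RBM10 and 21.3, 44.6, 99.0 and 38.6 with IgG (-2.60, SE 0.54, edgeR adjusted p = 0.0029). Hist2h3b (-2.39), Hist1h3h (-2.31), Hist1h4h (-2.09), Hist2h4 (-2.01), Hist1h1a (-1.98) and Hist1h4b (-1.96) followed, each called and without overlap of the groups. The 6 tested histone genes that were not called were Hist1h2bb, Hist1h3a, Hist1h3g, Hist1h4j, Hist4h4 and Hist2h3c1, with log2 fold changes of -1.41, -1.49, -1.43, -1.49, -1.12 and -0.03. Hist2h3c1 overlaps Hist2h2aa1 on the same strand. Histone genes are near-identical copies of each other, and how reads were divided among copies is not given in the sources used here, so the values of single histone genes are uncertain.

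Among the other named genes 16 of 21 tested were called lower, 5 of 21 with crosslinks counted in exons and 6 of 16 without IgG replicate 2. Of all genes tested, 17.6%, 4.59% and 8.18% were lower in these settings, and the limit of the count filter applies here too. Hnrnpa0, which encodes an RNA-binding hnRNP protein (ENSMUSG00000007836.6, chr13:58227240-58229917), had 37.3, 54.3, 12.7 and 15.5 CPM with RBM10 and 95.8, 88.8, 89.1 and 96.4 with IgG. The IgG values lay close together and all above the RBM10 values (-1.82, SE 0.40, edgeR adjusted p = 0.0040). Pcbp1, a poly(C)-binding protein gene (ENSMUSG00000051695.5, chr6:86474493-86476165), had 16.4, 21.4, 9.86 and 3.88 with RBM10 and 46.8, 44.6, 39.6 and 51.4 with IgG (-1.98, SE 0.39, edgeR adjusted p = 0.0023). The lowest fold of all 62 was that of Mesdc1, with 1.82, 6.43, 1.76 and 0 CPM with RBM10 and 18.1, 14.4, 19.8 and 19.3 with IgG. It rests on 25 RBM10 and 53 IgG crosslinks (-2.64, SE 0.57, edgeR adjusted p = 0.0038). Itpripl2 had a log2 fold change of -2.38 (edgeR adjusted p = 0.0047) with 32 and 61 crosslinks.

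Of the AP-1, C/EBP and immediate early list, 8 of 10 genes had a crosslink, beside 561 of all 2845 single-exon genes, and 4 were tested. The small GTPase gene Rhob (-1.67, edgeR adjusted p = 0.0094), Ier5 (-2.07, 0.026) and Irf2bp1 (-1.96, 0.012), which was also put in this list, were called lower. Of all genes tested 17.6% were lower, and the limit of the count filter applies to these calls too. Junb, an AP-1 subunit, was not called: it had 2.73, 13.2, 1.06 and 0 CPM with RBM10 and 14.9, 13.5, 9.90 and 0 with IgG (-1.48, adjusted p = 0.13). With crosslinks counted in exons none of these 3 calls held (adjusted p = 0.10, 0.0801 and 0.0900). With the experiment pair in the model Ier5 had an adjusted p of 0.050. No gene of the SOX and POU, forkhead, chromatin factor, claudin, interferon or receptor lists passed the filter. The forkhead list held 66 crosslinks with RBM10 and 71 with IgG over 11 genes, and the 7 SOX and POU genes 13 and 6. These are sums not scaled to depth, and each RBM10 library was deeper than its paired IgG library, so they do not compare rates. Heat shock gene Hspa1a had none in any library.

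The genes with predicted symbols were led by B930036N10Rik, which overlaps a U5 snRNA gene on the same strand (chr1:173432927-173434242). It had 68.2, 117, 32.0 and 171 CPM with RBM10 and 169, 146, 139 and 90.0 with IgG, and its groups overlapped (-0.81, SE 0.41, edgeR adjusted p = 0.12). Its crosslinks cannot be assigned to the coding gene or the snRNA. Its call depended on the setting: it was lower without a filter (adjusted p = 0.0232), without RBM10 replicate 4 (0.0269) and in pairs 1 and 2 alone (0.00193), and had 0.029 as its log2 fold change in exons. Called lower were Gm9843 (-1.90, adjusted p = 0.019) and Gm2000 (-1.84, adjusted p = 0.046, and 0.058 with the experiment pair in the model). With crosslinks counted in exons neither call held (adjusted p = 0.0705 and 0.118), nor without IgG replicate 2 (0.0529 and 0.154).

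Along histone transcripts the crosslinks of both groups gathered just before the stem-loop. In the 57 genes with a stem-loop, the 60 nt before it held 56.4, 64.3, 54.0 and 68.2% of the RBM10 crosslinks and 60.9, 63.9, 72.6 and 69.1% of the IgG crosslinks, on 7.73% of the bases counted. The groups overlapped (60.7 ± 6.67% and 66.6 ± 5.22%, exact permutation p = 0.200). The stem-loop itself held 0.0851 ± 0.0571% with RBM10 and 0.166 ± 0.228% with IgG. Because these mRNAs end in the stem-loop, a crosslink in or next to it leaves little RNA on its 3′ side for a read. Whether reads that short were recovered was not tested, so the low share does not show a lack of contact there. With IgG the highest mean share lay 14 nt before the first base of the stem-loop (4.17 ± 1.30% of crosslinks, SD, n = 4). With RBM10 it lay 24 nt before it (2.94 ± 1.73%), which rests on library 4. That library, with 406 crosslinks in these genes, had 5.42% at 24 nt and 0.739% at 14 nt. RBM10 libraries 1 to 3 had 2.24, 2.65 and 1.45% at 24 nt and 2.77, 3.64 and 2.66% at 14 nt. Without library 4, left out after its values were seen, the highest RBM10 mean was at 14 nt (3.03 ± 0.535%, n = 3), as with IgG, and 24 nt had 2.11%.

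The position with the most crosslinks was the same or near in both groups in some genes and not in others. Of 31 genes with a stem-loop and at least 50 crosslinks in each group, 11 had it at the same base, 17 within 2 nt and 9 more than 10 nt apart. In Hist1h4d 90.8% of 523 RBM10 and 88.2% of 654 IgG crosslinks lay in the 60 nt before the stem-loop, with the most at 25 nt before it with RBM10 (67 crosslinks) and at 23 nt with IgG (62 crosslinks). In Hist2h2ac these shares were 89.2% and 86.7%, and the top position was 25 nt before the stem-loop in both groups, with 25 and 34 crosslinks. In Hist1h1d the top position in both was the first base of the sequence printed above, 14 nt before the stem-loop, with 12 and 32 crosslinks. In Hist1h1a it was 11 nt before the stem-loop in both, with 13 and 23 crosslinks, but the 60 nt held only 7.45% and 7.67% of the gene's crosslinks. H2afx had 39.2% of 375 RBM10 and 50.8% of 451 IgG crosslinks in the 60 nt, and its top position lay 61 nt before the stem-loop with RBM10 (13 crosslinks) and 7 nt before it with IgG (22 crosslinks). The H4 genes Hist1h4c (28 and 17 nt), Hist2h4 (56 and 27 nt) and Hist4h4 (41 and 16 nt) and the linker histone gene Hist1h1c (90 and 13 nt) also differed, in the order RBM10 and IgG. These are sums over libraries of unequal depth, given as a description.

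**Figure D4:**
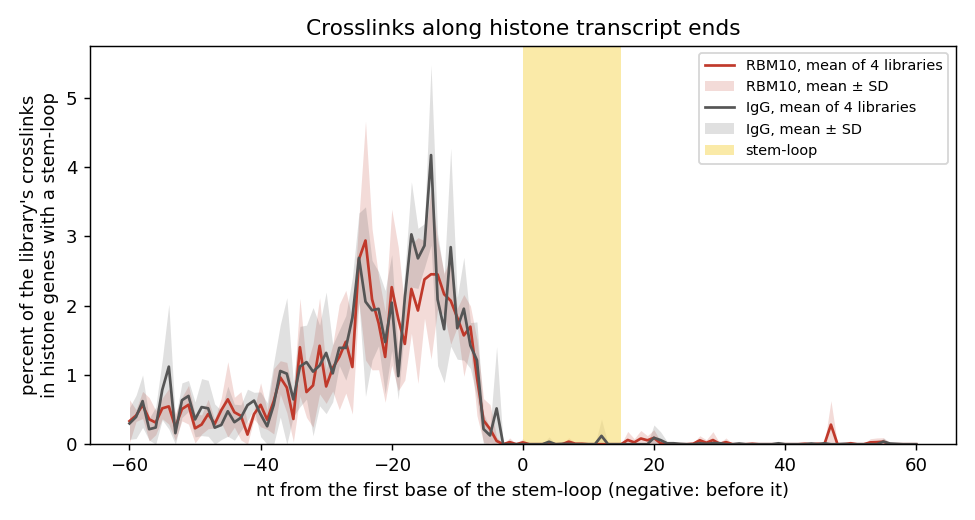
Percent of a library's crosslinks in the 57 histone genes with a stem-loop (vertical axis) by distance in nt from the first base of the stem-loop (horizontal axis); lines are means of 4 libraries, bands ± SD and the yellow block the stem-loop. Both groups rise within the 40 nt before the stem-loop, fall again in the last few nt before it and are near 0 from 3 nt before it on. The IgG mean is highest at 14 nt before it (4.17%); the RBM10 mean is highest at 24 nt (2.94%), which rests on library 4 (5.42%), and libraries 1 to 3 are higher at 14 nt than at 24 nt.

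Recurrent positions in single-exon genes were shared with the control. Of 11075 crosslinked positions, 56 were hit in all 4 RBM10 libraries, and all 56 were also hit in at least 1 IgG library, 36 of them in 3 or 4. They lay in 19 histone genes (40 positions) and in B930036N10Rik (16 positions), and 38 of the 56 were at U. None of the 5318 positions in other named genes was hit in all 4 RBM10 libraries. Only 2 of these were hit in 3 of them, and they are shown because no other position in that class recurred as often; they were chosen after their values were seen. Each line gives 25 nt of the transcript strand, 5′ to 3′, mm9, with the crosslinked base in capitals, as DNA.
Pcbp1, chr6:86475691-86475715, minus strand: caatgccatcttTaaggccttcgcc
Rprml, chr11:103511187-103511211, plus strand: gtggctagactgCtgccccggcggc
Both lie in coding sequence. The Pcbp1 position had 6 RBM10 crosslinks and 3 IgG crosslinks. The Rprml position had 6 RBM10 crosslinks and no IgG crosslink, and Rprml had no other crosslink in the RBM10 libraries. The counts at both positions are not scaled to library depth. In the other named genes as a whole, coding sequence held 41.5 ± 1.29% of crosslinks with RBM10 and 40.6 ± 4.76% with IgG, on 46.0% of the bases. The 3′ UTR held 46.3 ± 2.74% and 45.5 ± 3.76%, on 43.7% of the bases. Neither share passed the test (exact permutation p = 0.914 and 0.743).

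Crosslinks followed the RNA level in some classes of single-exon gene and not in others. The TPM table of md cells had a transcript of 2416 of the 2845 genes, and 328 of them averaged 1 TPM or more in the md WT samples. Genes with predicted or pseudogene symbols summed to 40354 TPM (4.04% of all TPM), the other named genes to 2049 TPM and the histone genes to 219 TPM. IgG CPM per 1000 TPM were 13.6, 491 and 9659 in these classes, and RBM10 CPM 6.43, 187 and 3073. B930036N10Rik, which overlaps a U5 snRNA gene, held 136 of the 550 IgG CPM and 97.0 of the 260 RBM10 CPM of the predicted and pseudogene class. The RNA-seq selected polyadenylated RNA, and replication histone mRNAs lack a poly(A) tail, so their TPM and their crosslinks do not refer to the same RNA pool. In the 111 other named genes with at least 1 TPM, CPM per kb rose with TPM, with Spearman's rho of 0.65 for IgG and 0.67 for RBM10. In the 40 such histone genes rho was -0.09 for both. In the 176 such genes with predicted or pseudogene symbols it was 0.28 for IgG and 0.31 for RBM10. These correlations are across genes of the same libraries, and genes are not independent replicates.

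The levels of single genes show the same contrast. Hist1h4d had 4.52, 2.73 and 3.82 TPM in md WT, against 181, 184 and 179 TPM for Pcbp1 and 127, 122 and 110 TPM for Hnrnpa0, which had fewer crosslinks. H2afx, whose mRNA can also end in a poly(A) tail, had 50.0, 50.5 and 47.0 TPM. The 10 genes with the highest TPM all carry predicted or pseudogene symbols: Gm7536, Gm6139, Gm10288, Gm9843, Gm2000, Rpsa-ps10, Rps27a-ps2, Gm5451, Gm10335 and Gm17352, from a mean of 3623 TPM for Gm7536 down to 1484 TPM for Gm17352. Of these 5 had no crosslink in any library (Gm6139, Rps27a-ps2, Gm5451, Gm10335 and Gm17352), Gm7536 had 7, and only Gm9843 (156) and Gm2000 (175) were tested. Of the 48 single-exon genes with at least 100 TPM, 18 had no crosslink. A retrocopy closely resembles its parent gene, and whether reads of the parent were shared with it in the TPM values or kept out of the crosslink counts was not tested.

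**Figure D5:**
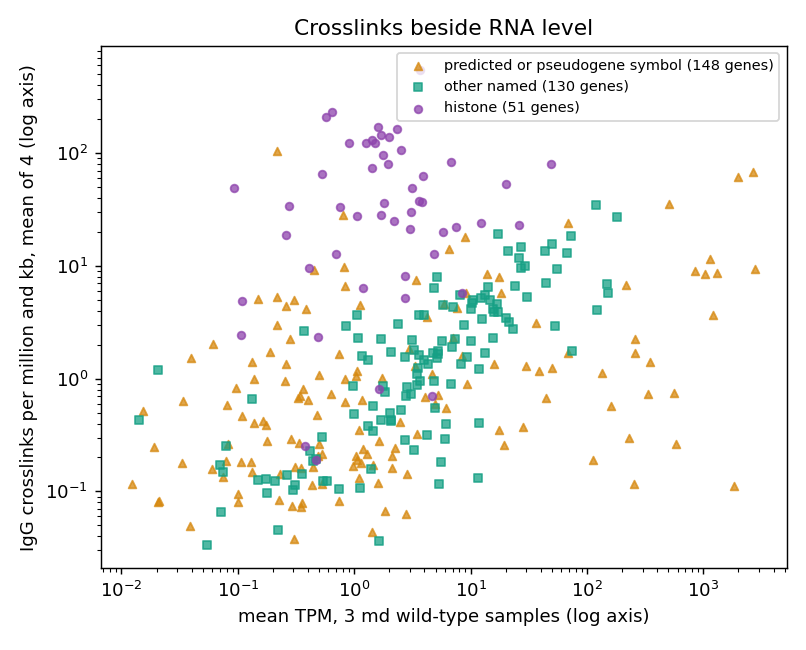
IgG CPM per kb (mean of 4 libraries, log axis) against mean TPM of 3 md wild-type samples (log axis) for single-exon genes above 0 on both axes: 51 histone, 130 other named and 148 predicted or pseudogene symbols. Histone genes lie high at low TPM, other named genes rise with TPM (rho 0.65 over the 111 with at least 1 TPM), and several predicted genes with over 100 TPM lie low.

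Loss of Rbm10 moved no single-exon gene past the threshold in md cells. Of 337 tested, 0 were called by limma on log2(TPM + 1), with 2 calls among all 12090 genes tested (0.0165%). At an unadjusted p under 0.05 there were 18 of 337, beside 829 of 12090 genes (6.86%). The median log2 fold change was -0.01 over single-exon genes and 0.01 over all genes. In bulk RNA, a change in the share of cells that express a gene and a change in RNA per cell cannot be told apart. Of 41 tested histone genes 22 were above 0, with a median of +0.03. The RNA-seq selected polyadenylated RNA and replication histone mRNAs lack a poly(A) tail, so these values do not show whether the level of those mRNAs changed. Hist1h4d had 4.90, 2.33, 4.50 and 6.95 TPM in KO1 to KO4, around the WT values (+0.23, SE 0.30, adjusted p = 0.895). H2afx had 43.4, 79.5, 68.0 and 47.3 TPM, with KO2 and KO3 high (+0.23, adjusted p = 0.851), and the linker histone gene Hist1h1c 28.7, 38.7, 19.8 and 27.2 TPM against 20.7, 20.2 and 20.1 in WT (+0.44, adjusted p = 0.738). Hnrnpa0 had 95.8, 120, 122 and 104 TPM in KO1 to KO4 (-0.12, adjusted p = 0.86). The lowest p was that of Gm10509, with 3.98, 3.60, 3.05 and 3.56 TPM across the KO lines and WT samples at 1.03, 1.35 and 1.42 (+1.00, SE 0.15, adjusted p = 0.381).

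In the ES lines, 25 of 326 tested single-exon genes were called, 22 higher and 3 lower in the gene trap line. The higher calls were 6.75% of those tested, beside 7.53% of all 12860 genes tested, a share near the background. The lower calls were 0.92%, beside 4.73% of all genes. Calls in both directions made up 7.67%, beside 12.3%. Hspa1a, the inducible heat shock protein 70 gene, had 0.480, 0.486 and 0.982 TPM in the parental line and 5.38, 4.38 and 5.98 TPM in the gene trap line (+1.93, SE 0.16, limma adjusted p = 0.0053). Sox11 and Sox3, factors of early neural development, rose from 1.66, 1.64 and 2.26 to 4.06, 4.13 and 4.25 TPM (+0.86, adjusted p = 0.017) and from 1.78, 1.85 and 2.62 to 4.62, 9.91 and 8.04 TPM (+1.42, adjusted p = 0.025). Both tested members of the SOX and POU list thus rose. Junb rose from 11.1, 10.4 and 12.3 to 17.3, 20.4 and 20.1 TPM (+0.72, adjusted p = 0.019), and Ier5l from 6.50, 5.95 and 5.20 to 8.93, 12.9 and 12.4 TPM (+0.84, adjusted p = 0.027). They were 2 of 7 tested genes of the AP-1, C/EBP and immediate early list. Fjx1 rose from a mean of 1.77 to 6.63 TPM (+1.40, adjusted p = 0.027). Among predicted genes Gm10108 (+1.11), Gm10053 (+0.51) and Gm6505 (+0.50) rose and Gm4307 fell by 0.71 on the log2 scale. The groups did not overlap for any of these 10 genes. Of 44 tested histone genes 0 were called by limma, with the limit of polyadenylated RNA given for md cells. Hist1h4d had 12.7, 11.9 and 8.82 TPM in the parental line and 8.66, 6.05 and 9.08 in the gene trap line (-0.44, limma adjusted p = 0.14).

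The number of ES calls depended on single samples. Without KO replicate 2 or KO replicate 3, 0 of 318 single-exon genes were called by limma, beside 0.482% and 0.387% of all genes tested. An unadjusted p under 0.05 was found for 38 and 55 of them, beside 2859 of 12659 and 2977 of 12675 genes. Without WT replicate 1 or WT replicate 2 the count was 1 of 320, Hspa1a, in each case, beside 0.166% and 0.387%. Without KO replicate 1 the count was 75 of 313, beside 31.7%. The share of all genes called thus depended on single samples too. Each group is a single line, so p-values measure the spread between samples of 1 line and another, and the lines may differ in more than Rbm10.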

How the data were processed

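The authors deposited iCLIP crosslink counts per nucleotide and strand; reads were mapped to mm9 per the series' design text. Whether molecular barcodes were collapsed, and how reads with several matches were treated, is not given in the sources used here, so a position can hold copies of 1 molecule. They also deposited TPM per transcript, 1 table per cell type, each column with the same sum, so the RNA-seq depth is unknown; the quantifier is not given in the sources used here. The builds mm9 and mm10 are named per the submitters' processing notes without a role. Of 100249 transcripts 84.7% joined to GENCODE vM1 by identifier.

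Same-strand crosslinks were summed over the body of every annotated gene outside chromosome M and fitted by the quasi-likelihood method of edgeR 4.0.16, after filterByExpr, with TMM factors and all crosslinks outside chromosome M as library size; DESeq2 1.42.0 was an alternative. CPM use the same library sizes. Shares per library were compared by 2-sided exact permutation tests. Gene TPM, summed over transcripts, was tested on log2(TPM + 1) with limma 3.58.1 (trend) where 3 or more libraries reached 1 TPM, so folds of low genes are understated. A gene was called at p under 0.05 after Benjamini-Hochberg adjustment over all genes tested. The RBM10 against IgG test was also run on simulated counts of 9005 genes. All genes shared a common dispersion, and each gene had the same rate in every library of a group. There, 100% of genes with log2 changes of -2 or 2 were called, 51.1% with -1, 34.7% with 1 and 0.0454% of unchanged genes. Differences in spread between genes, and in rate between libraries of a group, were not simulated, so these percentages need not hold for the real data.

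The design text gives each RBM10 replicate its own IgG control, which pairs the libraries by number; deviations of paired libraries from their group means correlated at only 0.03, 0.02, -0.02 and 0.03. RNA-seq numbers pair nothing. The labels do not state that md WT samples, or samples of 1 ES line, were separate cultures: p-values then measure only the spread between samples, possibly technical.

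Genes were named by rule: the 10 lowest called genes without group overlap, same-strand overlap or predicted symbol, with at least 5 CPM in the higher group; the 10 with the most RBM10 crosslinks and the 10 with the highest md WT TPM; tested histones; called ES genes by p; and up to 4 tested genes per list. The genes, the 12 lists and the tests were chosen with earlier results of these data known. Not every gene the rule takes is printed, and the md gene with the lowest p, the genes of the other positions and uncalled genes outside the rule were named after their values were seen. The software was R 4.3.3, matplotlib 3.10.9, pysam 0.24.0, scipy 1.17.1, pandas 2.3.3, numpy 2.4.6 and Python 3.11.15.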

Additional observations from a re-analysis of the deposited data

Results flagged for a closer look

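In groups of 4 libraries, 5 values stood apart from the other 3 by a gap above Dixon's 95% critical value, in 136 groups examined; chance alone does this in about 1 group in 20. Hist1h4f, a histone H4 gene, had 10.6 CPM in RBM10 library 3 and 29.3 to 31.1 in the others. Hist1h4a had 19.3 in RBM10 library 2 and 3.88 to 4.58 in the others. Among IgG libraries, library 3 was high for Hist1h2ah (89.1, others 25.7 to 35.1) and Hist1h3g (39.6), where these values rest on 9 and 4 crosslinks. RBM10 library 4 had no crosslink inside a histone stem-loop (0%), and the other RBM10 libraries had 0.107 to 0.121%, from 1, 4 and 1 crosslinks. Library 4 held 406 crosslinks in these genes, so that 1 crosslink there is 0.246%, and IgG libraries 1 and 3 were also at 0.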

How the results depend on the processing

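No alternative called a single-exon gene higher with RBM10. The count of called genes was 48 of 62. The percentages that follow are shares of all genes called lower in the same setting, 17.6% in the main one. The count was 89 of 231 with at least 10 crosslinks (12.1%), 93 of 561 without a filter (8.39%) and 22 of 62 in exons (4.59%). With 1 library left out it ran from 28 of 57 without IgG replicate 2 (8.18%) to 69 of 72 without RBM10 replicate 2 (21.9%). With the replicate block it was 39 of 62 (13.6%), with DESeq2 48 (14.7%) and without TMM factors 43 (10.3%). The difference in library share (RBM10 minus IgG, -0.253 points) was -0.283 to -0.228 with 1 library left out, that in exonic share (-1.17 points) -1.30 to -1.04, and that in C share (5.78 points) 3.84 to 6.92; p was then 0.0571, the smallest possible. With the replicate block, as exact sign flips of pairs, these values were -0.253, -1.17 and 5.78 with an exact p of 0.125. Pairs 1 and 2 alone, chosen after seeing the data, gave -0.177, -0.670 and 2.71 points and called 70 of 109 genes lower (19.2% of all genes). Of 44 named genes tested for crosslinks, Hist2h3c1 (-0.03) turned positive without TMM factors (0.25), with DESeq2 (0.082), with at least 10 crosslinks (0.034), without a filter (0.14), with the replicate block (0.039), in exons (0.80), with each position counted once (0.10) and in pairs 1 and 2 (0.068), and ranged from -0.34 to 0.67 with 1 library left out, including 0.04, 0.29 and 0.08. Hist2h3c1 was called under none of these. B930036N10Rik (-0.81, not called) was 0.029 in exons and was called lower without a filter, without RBM10 replicate 4 and in pairs 1 and 2 alone. Counting every gene in exons, which leaves the counts of single-exon genes themselves essentially unchanged, ended 16 calls of named genes. Leaving out IgG replicate 2 ended 10. In md cells 0 single-exon genes were called under every alternative. In ES cells the count of 25 (12.3% of all genes called) was 15 without a filter (3.50%) and 7 with the replicate block (3.28%). With 1 sample left out it was 0 to 75, and the share of all genes called was 0.166 to 31.7%. Same-numbered samples correlated at -0.11 to -0.001 in md and at 0.16, -0.13 and 0.04 in ES cells, so RNA-seq numbers pair no samples. The replicate block ended the calls of Gm2000, Hist1h2ag and Ier5 among the named crosslink genes and of Gm10053, Gm4307, Gm6505 and Ier5l in ES cells. The causes were not tested. IgG libraries 3 and 4 are shallow, so genes under about 20 to 30 CPM rest on few crosslinks there.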
